A study of Mus musculus with 4 samples.

Results

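Igf1, Igfbp1, Igfbp3 and Ghr, which code for the main parts of the growth hormone and insulin-like growth factor (IGF) axis in liver, were described through the H4K16ac islands in windows around them. An island is a stretch of the genome in which ChIP reads against histone H4 acetylated on lysine 16 exceed the reads of unprecipitated chromatin (input) after scaling for library size. Members were the islands that overlap 3 windows: 87.29 to 87.43 Mb of chromosome 10 for Igf1, 7.07 to 7.15 Mb of chromosome 11 for Igfbp1 and Igfbp3, and 3.24 to 3.56 Mb of chromosome 15 for Ghr. The windows held 24 of 28377 islands in the Sirt1 mutant (MT) and 18 of 26227 islands in the wild type (WT), 42 of 54604 in all.

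The islands come from liver of 1 MT (SIRT1 KO) and 1 WT mouse, both 3 months old and both of mixed 129/FVB/Black Swiss strain. MT mice carry a targeted deletion of Sirt1 in the whole body and are survivors of a line that mostly dies before birth, so a liver effect and a systemic one cannot be told apart. Livers of both mice were snap frozen in the morning, and each gave a ChIP and an input library. With 1 mouse per genotype, differences between genotypes were not checked by replicates and carry no p-value, and every interval covers counting error only. Liver holds several cell types, and a different share of cells and a different level per cell cannot be told apart.

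Growth hormone from the pituitary acts on hepatocytes through the growth hormone receptor, and the liver answers by secreting IGF1, the main circulating mediator of growth. IGF-binding proteins carry IGF1 in blood and limit its access to receptors. Mice with low signalling along this axis are small and long-lived, which makes these loci of interest in a study of ageing. Acetylation of H4K16 loosens the packing of nucleosomes and is removed by Sirt1, a deacetylase that depends on NAD+.

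The submitters' processing notes name the genome build mm8, whereas the windows were set in mm9. The last islands of chromosomes 2 and 13 ended at 181861600 and 120593600, which is past the ends of these chromosomes in mm9, and the last island of chromosome 7 ended at 145093800, which lies within mm8. Positions of islands are therefore given as mm8. Whether the windows still hold the genes was checked by sliding the promoters of the RefSeq table for GRCm38 along each chromosome as 1 block and counting those that fell in islands. At the best fit 24 of 54 promoters within 4 Mb of the Igf1 window lay in islands, against a median of 4 over the 7501 placements tried. The counts were 36 of 73 promoters against 8 around the Igfbp window and 7 of 21 against 0 around the Ghr window. A best placement lies above the median by construction. Placements with counts close to the best spanned 1.60 kb around Igf1, 0.800 kb around the Igfbp genes and 1.40 kb around Ghr. At the best placements Igfbp1, Igfbp3 and Ghr lay whole in their windows and Igf1 with 97.8% of its length. The rest of Igf1 lay past an end of its window, so the window may leave out the start of the gene. Parts of 2 neighbours also fell inside. They were 7.57% of Adcy1 beside Igfbp1, and 56.9% of the 23.4 kb Ccdc152 beside Ghr. Islands near the end of a window may thus lie in a neighbour. No island was assigned to a promoter, exon or intron, because no annotation of mm8 was used here.

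The RefSeq promoters of the 4 genes, from 250 bases before to 50 bases after the start of transcription, are shown because they are the regulatory starts of the loci described. All 4 genes matched by symbol, with 2 starts for Ghr. Their positions are in GRCm38.p6, whereas those of islands are in mm8, and no single promoter was set against an island. Capitals mark a TATAAA match on either strand, and the other motifs searched on both strands, TTCNNNGAA for STAT proteins that growth hormone activates and CACGTG for the clock factors, had no match in these windows.
Igf1 (chr10:87860861-87861160, plus strand): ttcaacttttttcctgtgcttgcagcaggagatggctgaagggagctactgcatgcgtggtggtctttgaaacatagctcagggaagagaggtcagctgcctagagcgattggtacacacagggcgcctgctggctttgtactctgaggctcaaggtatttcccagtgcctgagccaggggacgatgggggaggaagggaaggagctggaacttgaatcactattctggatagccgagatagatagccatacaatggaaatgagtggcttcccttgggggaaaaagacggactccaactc
Igfbp1 (chr11:7197537-7197836, plus strand): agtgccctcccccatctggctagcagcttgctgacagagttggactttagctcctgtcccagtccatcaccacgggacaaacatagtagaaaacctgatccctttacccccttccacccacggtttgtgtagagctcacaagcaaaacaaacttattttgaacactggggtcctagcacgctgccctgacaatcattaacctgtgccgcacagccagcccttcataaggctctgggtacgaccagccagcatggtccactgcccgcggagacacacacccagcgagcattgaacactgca
Igfbp3 (chr11:7213874-7214173, minus strand): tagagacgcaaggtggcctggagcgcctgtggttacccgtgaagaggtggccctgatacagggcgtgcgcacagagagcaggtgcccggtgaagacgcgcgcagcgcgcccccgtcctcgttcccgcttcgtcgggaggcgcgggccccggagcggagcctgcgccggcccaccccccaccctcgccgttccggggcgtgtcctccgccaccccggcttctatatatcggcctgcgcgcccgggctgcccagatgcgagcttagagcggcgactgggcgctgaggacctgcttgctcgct
Ghr, outer start (chr15:3583303-3583602, minus strand): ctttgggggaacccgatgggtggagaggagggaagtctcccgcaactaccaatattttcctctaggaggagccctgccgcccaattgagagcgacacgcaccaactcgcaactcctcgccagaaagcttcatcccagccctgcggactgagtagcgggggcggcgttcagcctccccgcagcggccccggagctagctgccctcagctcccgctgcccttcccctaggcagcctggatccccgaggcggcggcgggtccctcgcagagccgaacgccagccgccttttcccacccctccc
Ghr, inner start (chr15:3581793-3582092, minus strand): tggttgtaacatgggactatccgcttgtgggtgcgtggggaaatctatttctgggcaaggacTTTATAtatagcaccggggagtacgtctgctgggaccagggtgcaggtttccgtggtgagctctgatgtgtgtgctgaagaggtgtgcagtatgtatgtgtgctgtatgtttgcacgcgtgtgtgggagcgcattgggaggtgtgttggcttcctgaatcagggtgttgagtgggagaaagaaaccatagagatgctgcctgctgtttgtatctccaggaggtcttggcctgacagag
The Igfbp3 promoter held 37 CpG dinucleotides and 71.7% G and C, against 8 and 54.3% in its neighbour Igfbp1. The outer Ghr start held 23 CpG and the inner one 8, and Igf1 held 6, where the median of all 32851 promoters in the table was 7. Thus the 2 binding-protein genes, which lie next to each other, have starts of unlike composition. TATAAA occurs in 13.6% of all these promoters, TTCNNNGAA in 8.30% and CACGTG in 7.15%. The TATAAA match, of the inner Ghr start, reads on the opposite strand.

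The scale of the lists sets what can be read at a locus. The median island was 2.40 kb long in MT and 2.20 kb in WT, and its fold of ChIP over scaled input was 2.02 and 2.08. Over all islands MT had 33.3 ChIP reads per covered kb and WT had 32.5, with 15.4 and 14.1 input reads per covered kb. The MT ChIP library was estimated at 1.05 times and the MT input library at 1.09 times the depth of those of WT, and MT over WT ratios below are divided by these factors. Total reads per library are unknown. The lists hold no transcript levels, and the loss of Sirt1 and the liver origin of the chromatin were not checked here.

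**Figure D1:**
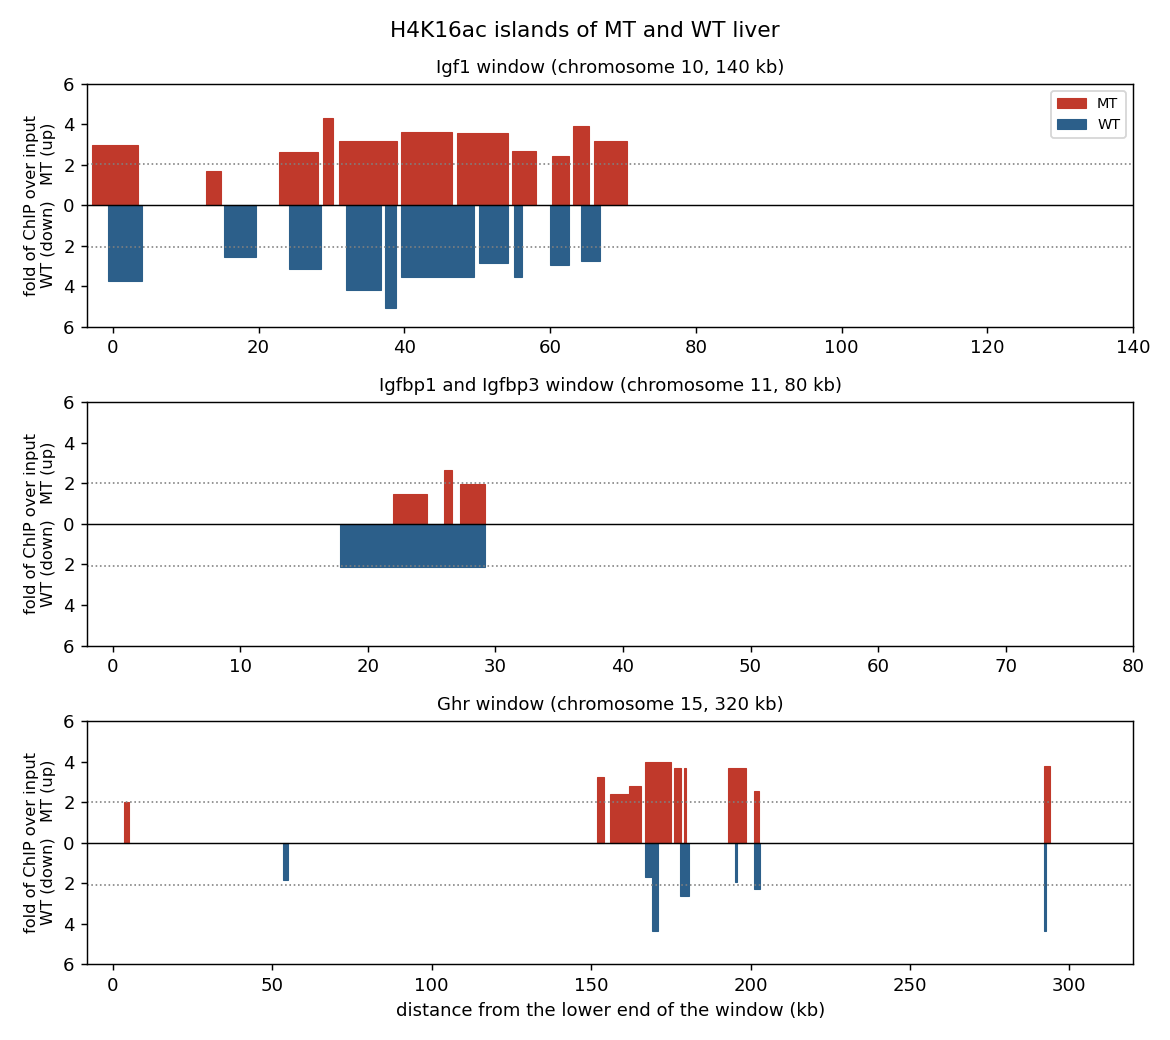
H4K16ac islands in the 3 windows, with distance from the lower end of each window in kb on the x axis and the fold of ChIP over scaled input on the y axis, MT upwards in red and WT downwards in blue. Each bar is 1 island drawn at its width, and dotted lines give the median fold of each whole list, 2.02 in MT and 2.08 in WT. Islands fill the lower part of the Igf1 window in both mice, take 1 place in the Igfbp window, and are wider and more numerous in MT in the middle of the Ghr window.

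At Igf1, the gene of the hormone itself, H4K16ac islands covered 49.4 kb in MT and 40 kb in WT, spread over spans of 73.4 and 67.4 kb. Igf1 is 78.8 kb long. There were 11 MT and 10 WT islands, and both lists left the upper part of the window, from 70.6 kb on, without an island. Islands covered 33.3% of the window in MT and 28.1% in WT, against 3.43% and 2.90% of chromosome 10 up to its last island. A 140 kb stretch of the genome with islands of both lists had a median of 9.60 kb covered in MT and 7.60 kb in WT, and the 95th percentiles were 38.0 and 30.2 kb. Igf1 thus lay above the 95th percentile of stretches of its length in both mice.

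The Igf1 islands were enriched beyond the typical island of either list. Their pooled fold was 3.08 in MT (95% interval 2.79 to 3.40) and 3.38 in WT (3.01 to 3.81), where all islands gave 2.05 and 2.09. A fold of at least 2 was reached by 10 of 11 MT and 10 of 10 WT islands, against 51.2% of all MT and 55.8% of all WT islands. A false discovery rate below 1e-20 in the authors' lists was reached by 6 islands in each mouse, against 13.5% of all MT and 10.4% of all WT islands. The higher fold went with less input rather than more ChIP. The 34.9 ChIP reads per covered kb in MT and 33.9 in WT were near the values of the whole lists, while the 10.7 and 9.10 input reads per covered kb were below the 15.4 and 14.1 of the whole lists.

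In MT the island with the most ChIP reads lay at chr10:87321001-87329000, with 319 ChIP and 96 input reads and a fold of 3.15 (2.50 to 3.99). In WT it lay beside it at chr10:87329601-87339600, with 360 ChIP and 93 input reads and a fold of 3.52 (2.79 to 4.47). Both are long islands, at 8.0 and 10 kb. The highest fold was 4.30 in MT (2.21 to 9.17; 50 ChIP and 11 input reads, chr10:87318801-87320200) and 5.07 in WT (2.72 to 10.3; 67 and 12 reads, chr10:87327401-87328800), in short islands of 1.40 kb each. Of the 10 gaps between MT islands 6 measured 600 bp, the shortest gap that can separate islands when 200 bp windows are joined over gaps of up to 400 bp. Of the 9 gaps between WT islands 2 did. Over the whole lists 9.42% of gaps in MT and 8.30% in WT had this length.

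The ChIP density at Igf1 was nearly equal in both mice under the scaling by input, and lower in MT under other scalings. Merging islands that overlap gave 10 regions, of which 7 were shared. Over the window MT had 33.3 ChIP reads per covered kb after scaling and WT had 33.9, a log2 ratio of -0.02 (-0.13 to 0.08). With the libraries scaled to equal ChIP reads over all islands the ratio was -0.32 (-0.42 to -0.22), and with equal ChIP reads in all shared regions it was -0.22 (-0.33 to -0.12). Input gave 0.11 (-0.08 to 0.31). Under the scaling by input, 2 of the 7 shared regions were higher and 5 lower in MT, and each interval included 0. The region with the most reads, chr10:87329601-87344200, held 501 ChIP reads in MT and 483 in WT over 14.0 kb in each, with 132 input reads in each mouse, a ChIP log2 ratio of -0.01 (-0.20 to 0.17). The first region, at the lower end and thus on the 5′ side of a gene on the plus strand, held 265 ChIP reads over 6.20 kb in MT and 290 over 8.0 kb in WT, a log2 ratio of 0.17 (-0.07 to 0.42). Its WT reads include an island of 101 reads, chr10:87285401-87288800, which ends before the window and is no member.

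Without dividing by length, MT islands of the Igf1 window held 1.22 times the ChIP reads of WT (1.13 to 1.31), with 1724 reads in MT and 1354 in WT before scaling. The covered length was 1.24 times that of WT, and over the whole lists the ratios were 1.23 for reads and 1.25 for length. MT reads of at least 2 times WT were found in 16.7% of the 140 kb stretches and WT reads of at least 2 times MT in 6.87%. The excess of MT reads at Igf1 was thus near that of the lists as a whole. At Igf1, 3 of the 10 merged regions had an island in 1 list alone, 2 in MT and 1 in WT, where 33.9% of all merged regions were of MT alone and 25.7% of WT alone. MT alone had chr10:87302801-87304800 with 50 ChIP and 28 input reads, a fold of 1.69, and chr10:87318801-87320200, the island of highest fold named above. WT alone had chr10:87305201-87309600 with 103 ChIP and 37 input reads, a fold of 2.53. The weaker MT island and the WT island adjoin without overlapping, 0.400 kb apart, and the other MT island lies 0.200 kb from a WT island, so none of these places stands far from islands of the other mouse.

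**Figure D2:**
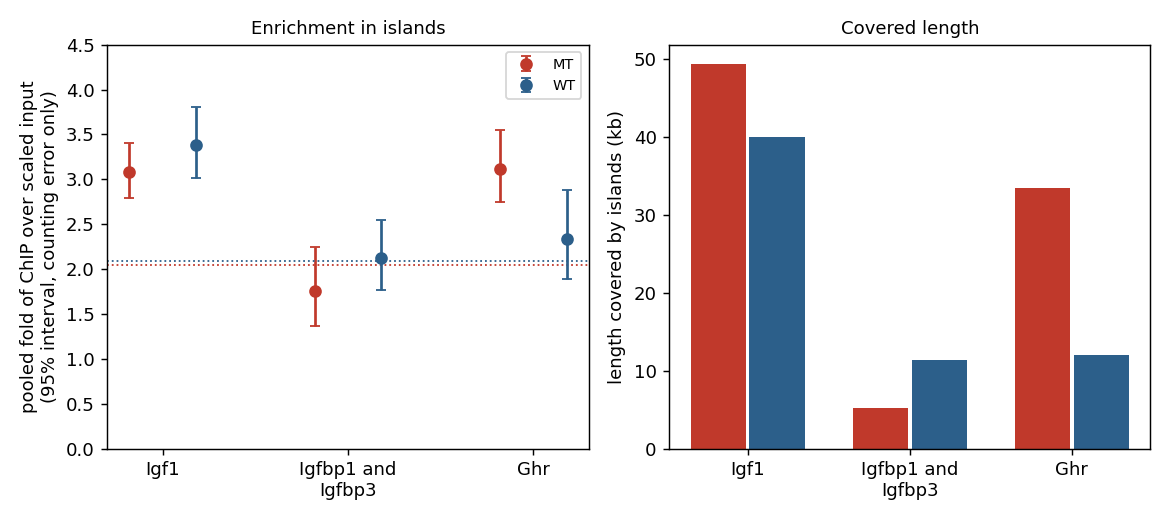
Pooled fold of ChIP over scaled input in the islands of each window (left) and length covered by islands in kb (right), for MT in red and WT in blue. Points are folds with 95% intervals from counting error only, and dotted lines give the pooled fold of all islands, 2.05 in MT and 2.09 in WT. Igf1 lies above both lines and Igfbp1 and Igfbp3 near them. Ghr is wider in MT and its fold is higher there, 3.12 against 2.33. Islands with a fold of at least 2 alone gave 3.19 against 2.86.

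Igfbp1 and Igfbp3 code for neighbouring binding proteins. Igfbp1 is made in liver and rises with fasting, while Igfbp3 carries most IGF1 in blood and comes largely from the non-hepatocyte cells of liver. Their window held 3 islands in MT and 1 in WT, all within 11.4 kb, and the upper part of the window, from 29.2 kb on, had none in either list. The WT island, chr11:7087801-7099200, held 399 ChIP and 171 input reads and a fold of 2.12 (1.77 to 2.55), and it was longer than 99.4% of WT islands. The MT islands within the same stretch were chr11:7092001-7094600 with 92 ChIP and 59 input reads, chr11:7096001-7096600 with 31 and 11, and chr11:7097201-7099200 with 68 and 33. Their folds were 1.48 (1.05 to 2.08), 2.67 (1.31 to 5.88) and 1.95 (1.27 to 3.05). The last MT island ended at the same base as the WT island. These islands were assigned to neither gene, and the values below belong to this 1 stretch, not to both genes.

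Enrichment in the window of the binding-protein genes was near that of the typical island, with a pooled fold of 1.76 in MT (1.37 to 2.25) and 2.12 in WT (1.77 to 2.55). Islands covered 6.50% of the window in MT and 14.2% in WT, where chromosome 11 was covered to 5.21% and 4.06%. Input was higher here than at the other 2 loci, at 19.8 reads per covered kb in MT and 15.0 in WT. Where islands were listed, the ChIP density was 35.1 reads per kb in MT after scaling and 35.0 in WT, a log2 ratio of 0.00 (-0.25 to 0.26). With equal ChIP reads over all islands it was -0.30 (-0.55 to -0.04). With equal ChIP reads in all shared regions it was -0.20 (-0.45 to 0.06). Input gave 0.28 (-0.09 to 0.64). The 2 mice differed in the extent of their islands. MT islands covered 5.20 kb and WT islands 11.4 kb, a ratio of 0.456, and MT islands held 0.457 times the ChIP reads of WT (0.383 to 0.545). WT reads of at least 2 times MT were found in 7.72% of 8291 stretches of 80 kb with islands of both lists, and the reverse in 18.0%. The 5th percentile of the MT over WT ratio of reads in these stretches was 0.418, below that of the window. The reads of MT in the parts between its islands are not listed.

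Ghr codes for the growth hormone receptor, the entry point of the axis into hepatocytes. Under the scaling by input, its window had of all 3 the ratio of island reads between the mice farthest from 1. It held 10 islands over 33.4 kb in MT and 7 islands over 12.0 kb in WT. The gene is 266 kb long, and most of the window was free of islands: 10.4% was covered in MT and 3.75% in WT, against 3.24% and 2.72% of chromosome 15. Islands fell in 4 groups when places within 20 kb were joined. The main group, 152 to 203 kb from the lower end (chr15:3391801-3443400), held 8 MT islands with 943 ChIP reads and 5 WT islands with 254. It covered 30.0 kb in MT and 9.60 kb in WT. A second place, chr15:3531601-3533600 near the upper end and thus towards the 5′ side of a gene on the minus strand, had 1 island in each mouse, with 72 ChIP reads over 2.0 kb in MT and 24 over 0.800 kb in WT.

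Over the Ghr window MT islands held 1053 ChIP reads and WT islands 320, a ratio of 3.14 after scaling (2.77 to 3.57), on a covered length 2.78 times that of WT. MT reads of at least 2 times WT were found in 13.3% of 3919 stretches of 320 kb with islands of both lists, whose median ratio was 1.21 and 95th percentile 2.85, and the reverse in 5.56%. Input reads in islands were 2.34 times those of WT (1.90 to 2.90). Per covered kb the difference was small: 30.1 ChIP reads in MT after scaling against 26.7 in WT, a log2 ratio of 0.18 (-0.01 to 0.36). Its sign depended on the scaling. With equal ChIP reads over all islands the ratio was -0.12 (-0.31 to 0.06), and with those in all shared regions -0.02 (-0.21 to 0.16). For input, MT had 8.76 reads per covered kb after scaling and WT had 10.4, a log2 ratio of -0.25 (-0.55 to 0.06). The pooled fold was 3.12 in MT (2.75 to 3.55) and 2.33 in WT (1.89 to 2.88). The log2 difference of the folds was 0.43, with an SE of 0.178 from counting. This gap depended on the weaker WT islands and on the window. With a fold of at least 2, or a false discovery rate of at most 1e-05, the pooled folds were 3.19 in MT and 2.86 in WT. With windows widened by 50 kb they were 3.04 and 2.72. A fold of at least 2 was reached by 9 of 10 MT islands, against 51.2% of the MT list, and by 4 of 7 WT islands, near the 55.8% of the WT list. A false discovery rate below 1e-20 was reached by 3 of 10 MT islands, against 13.5% of the list, and by 0 of 7 WT islands, where 10.4% of the list is less than 1 island in 7.

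The MT island with the most ChIP reads was also that of highest fold, at chr15:3406601-3414800 with 256 ChIP and 61 input reads and a fold of 3.97 (2.99 to 5.34). At 8.20 kb it was longer than 96.3% of MT islands. The same place held 2 WT islands, chr15:3406601-3408800 with 51 ChIP and 27 input reads and chr15:3409401-3411400 with 43 and 9, the first of which starts at the same base. Per covered kb this region had a log2 ratio of 0.41 (0.07 to 0.77). Under the scaling by input it was the one shared region of the 3 windows whose interval did not include 0. The other scalings, with ChIP factors of 1.20 and 1.29 in place of 1.05, lower every ratio, so this need not hold under them. Intervals above 0 were found in 7.23% and below 0 in 7.96% of all 14719 shared regions. The WT island of most reads, chr15:3441401-3443400, held 70 ChIP and 28 input reads and met an MT island with 73 and 27 reads, a log2 ratio of 0.15 (-0.35 to 0.64). Within the main Ghr group, places with nearly equal reads in both mice thus lay beside places with few or none listed in WT. The WT island of highest fold, chr15:3532401-3533200, rests on 24 ChIP and 5 input reads (fold 4.36, 1.63 to 14.6).

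At chr15:3433401-3439000 MT had 172 ChIP and 44 input reads over 5.60 kb, and WT had 32 and 15 over 0.800 kb. Here the ChIP log2 ratio per covered kb was -0.45 (-1.0 to 0.15), while that of input was -1.38 (-2.25 to -0.43). The short WT island has a high input density of 18.8 reads per kb on 15 reads, and its fold was 1.94, against 3.70 for the MT island. A density ratio between islands of such unlike length compares different stretches of chromatin. Its value is therefore no measure of the level at 1 place.

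**Figure D3:**
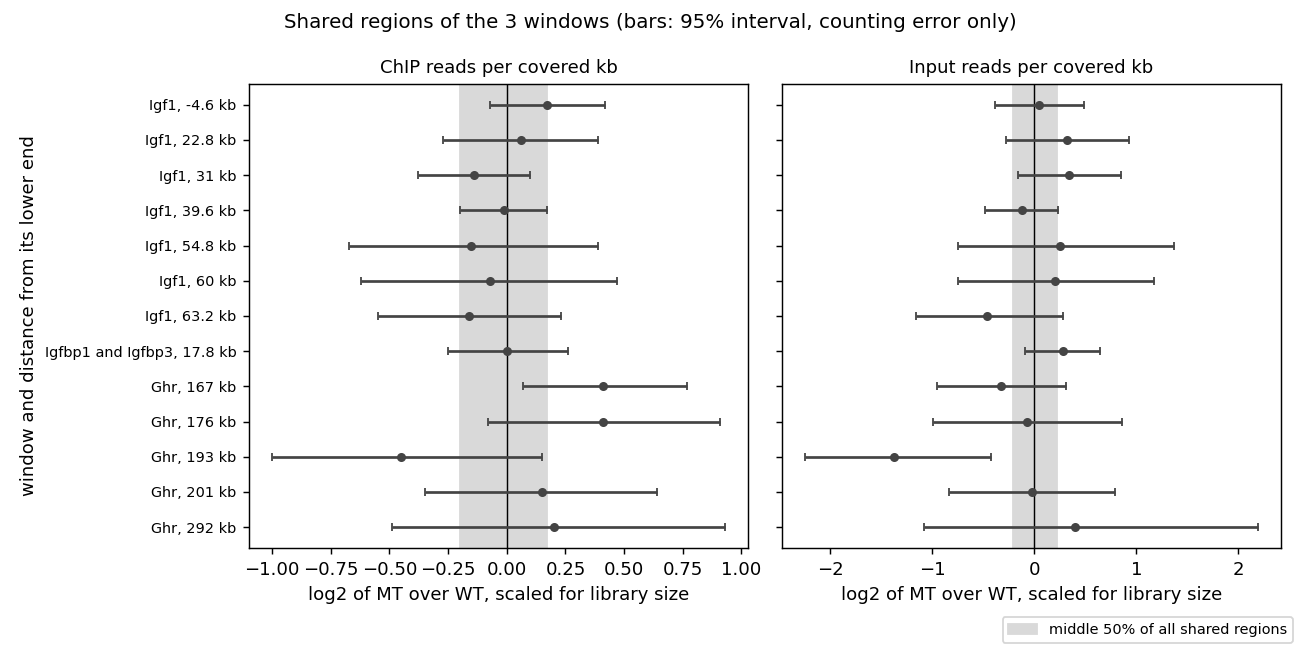
MT over WT log2 ratio of ChIP (left) and input (right) reads per covered kb, divided by the ratio of library sizes, at the 13 shared regions, each named by its window and its distance from the lower end in kb. Points are ratios, bars are 95% intervals from counting error, and the grey band is the middle 50% of all 14719 shared regions, -0.20 to 0.17 for ChIP. Under the scaling by input the ChIP interval of 1 region at Ghr lies above 0, and the input interval of another region at Ghr lies below 0.

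In the Ghr window, 4 of the 10 merged regions had MT islands and no WT island, near the 33.9% of all merged regions. They held 387 ChIP reads, 36.8% of the MT reads in islands of the window. Of these, 3 follow each other: chr15:3391801-3393800 with 51 ChIP and 15 input reads, chr15:3396001-3401800 with 198 and 78, and chr15:3402401-3406000 with 100 and 34. Their folds were 3.22 (1.78 to 6.16), 2.40 (1.84 to 3.16) and 2.78 (1.87 to 4.24). The remaining one, chr15:3243601-3245000, lies near the lower end with 38 ChIP and 18 input reads. Its fold rounds to 2.0 from below (1.11 to 3.72), so it was not counted as at least 2. WT alone had 1 region, chr15:3293401-3295000, with 42 ChIP and 21 input reads and a fold of 1.82 (1.05 to 3.23), where 25.7% of all merged regions were of WT alone. In these places of the Ghr window, as in the 3 at Igf1, the reads of the mouse without an island are not listed. Its level there is thus unknown, and a lower level than in the other mouse is not shown.

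Over the 3 windows together, 18 of 24 MT islands overlapped a WT island and 16 of 18 WT islands overlapped an MT island by at least 1 bp, where 56.5% of all MT and 64.3% of all WT islands did. The 21 merged regions were 13 shared, 6 of MT alone and 2 of WT alone, where 40.4%, 33.9% and 25.7% of all 36418 regions fell in these classes. Under the scaling by input, 7 of the shared regions were higher and 6 lower in MT in ChIP density. Their median log2 ratio was 0.00, with a range of -0.45 to 0.41. Of all shared regions 48.5% were higher, with a median of -0.01. None of the 13 reached 1.5 times in either direction, which 2.89% of all shared regions did towards MT and 4.05% towards WT. The other scalings lower each ratio, so these counts hold for the scaling by input alone. The MT islands covered more length than the WT islands in 8 of the 13, the WT islands in 4, and 1 was equal, where MT was the longer in 56.9% of all shared regions. Under the scaling by input, the ratio of covered length between the mice was farther from 1 than that of ChIP density in each window. The values were 1.24 against 0.985 at Igf1, 0.456 against 1.0 at Igfbp1 and Igfbp3, and 2.78 against 1.13 at Ghr. The whole lists had the same order, 1.25 against 0.981. Over all shared regions the 5th to 95th percentiles of log2 ratios were -1.06 to 1.58 for length and -0.54 to 0.48 for density. Density is counted only inside called islands, so this order is not particular to these loci.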

How the data were processed

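H4K16ac ChIP-Seq of liver gave 1 ChIP and 1 input library for each genotype, and the authors called islands separately in each mouse. The submitters' notes name Bowtie 0.12.7, SICER 1.03 and mm8, and per the labels the deposited lists have duplicate reads removed, windows of 200 bp, gaps of up to 400 bp and a false discovery rate of 0.001. The deposited counts are whole ChIP and input reads per island. The authors' fold divides ChIP by input reads and multiplies this ratio by 1 constant per list, and the authors' p-value and false discovery rate compare ChIP with input within 1 mouse, not the genotypes. The lists have no header, and columns were identified from these relations. 1 MT island of the whole list has no input read.

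Islands sharing 1 bp or more became 1 merged region, using Python 3.11.15, numpy 2.4.6, pandas 2.3.3 and scipy 1.17.1. The MT over WT input library size was taken from the input density over 14719 shared regions, and that of ChIP followed from the constants. The input scaling and the intervals were tested on simulated Poisson counts drawn with the scaling and lengths that the method assumes. This checked the computation, not the spread between mice or the calling of islands. Intervals are exact 95% intervals of a ratio of Poisson counts. PCR duplicates beyond those removed are not covered. Percentages of stretches use the whole genome cut into pieces of the window's length, each island counted where its middle lies.

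Single islands were named by a rule: in each window and list the one with most ChIP reads, the one of highest fold, and those in 1 list alone. Others were named where a region was described. The windows and these rules were chosen with earlier results of these data known, and the folds of 1.5 and 2 used for shares after seeing the values. Other genes of the axis (Igf2, Igf1r, Igfals, Jak2, Stat5b, Socs2 and others) were not analysed here, since no annotation of mm8 was used. Expression arrays were not analysed here.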

Additional observations from a re-analysis of the deposited data

How the results depend on the processing

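Alternatives gave 125 values, of which 98 lay within the counting interval, or for numbers of islands and lengths within 1.5 times, of the reported value and 27 lay farther off. No cause was tested beyond what an alternative's construction shows. No paired analysis was possible because each genotype has 1 mouse.

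Reads not divided by length gave MT over WT log2 ratios for ChIP of 0.28 at Igf1, -1.13 at Igfbp1 and Igfbp3 and 1.65 at Ghr, and for input of 0.42, -0.86 and 1.23, since they take in the covered length. Equal ChIP reads over all islands gave density ratios of -0.32 (-0.42 to -0.22), -0.30 (-0.55 to -0.04) and -0.12 (-0.31 to 0.06). Equal ChIP reads in all shared regions gave -0.22 (-0.33 to -0.12), -0.20 (-0.45 to 0.06) and -0.02 (-0.21 to 0.16) in the same order. By construction these 2 scalings count the longer MT coverage as sequencing depth, with factors of 1.29 and 1.20 in place of 1.05. At Ghr the density ratio thus ranged from 0.18 to below 0 with the scaling, and it was 0.02 (-0.11 to 0.15) with windows widened by 50 kb. Islands that overlap the other list alone, chosen after seeing the data, gave 0.21 (0.00 to 0.42).

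At Igfbp1 and Igfbp3 a fold of at least 2 left 1 MT island of 0.600 kb with 51.7 ChIP reads per kb, a fold of 2.67 and a density ratio of 0.50. A false discovery rate of at most 1e-05 left 2.60 kb in MT, and widening gave 5 WT islands over 23.2 kb. At Ghr either threshold left 4 WT islands over 7.40 kb, with a pooled fold of 2.86 against 3.19 in MT. Widening gave 21.4 kb and 31.4 ChIP reads per kb in WT, with a fold of 2.72 against 3.04 in MT. When islands had to share at least 50% of both lengths, 7 of 24 MT and 7 of 18 WT islands overlapped the other list. Depth limits single islands: in the windows they hold 24 to 399 ChIP reads.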
